A study of Mus musculus with 13 samples.

Results

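Secreted Wnt antagonists were followed in mammary tumors driven by the ESCRT-I protein TSG101 and in normal mammary glands. The genes were chosen by name (Sfrp1, Sfrp2, Sfrp4, Sfrp5, Frzb, Wif1, Dkk2, Dkk3, Sostdc1 and Apcdd1), and 8 of these 10 were among the 15213 genes of the deposited table. Sfrp5 and Frzb were not listed there and were not analysed here. Total RNA was sequenced from 10 flash-frozen mammary tumors of 6 double transgenic (MMTV-tTA TetO-Tsg101) females, which the labels call MtTA Teto-TSG101wt, and from the mammary glands of 3 wild-type FVB females. In this model the MMTV promoter drives the tetracycline-controlled transactivator in a mosaic of luminal epithelial cells, where it switches on HA-tagged TSG101 and luciferase without doxycycline, and the transgenes were kept on the FVB/N background. The tumors came from 6 mice, of which 3 gave 1 tumor, 2 gave 2 tumors and 1 gave 3 tumors. Age and reproductive stage of the sequenced mice were not given in the sources used here. Tumors held between 6176269 and 16835397 recovered reads and glands between 11672487 and 23889042. Reads of the ribosomal RNA precursor Rn45s took 27.4% of tumor 9 and between 0.296% and 9.32% of every other library.

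Wnt proteins are secreted lipid-modified ligands that bind Frizzled receptors and the co-receptors Lrp5 and Lrp6, which stabilizes beta-catenin in the receiving cell. Antagonists act outside the cell at either step. Secreted Frizzled-related proteins (Sfrp) carry the cysteine-rich domain of the Frizzled receptors and Wif1 carries a WIF domain, and both kinds bind the Wnt ligand itself. Dkk2 and Sostdc1 bind the Lrp co-receptors instead. Apcdd1 also inhibits the pathway at the cell surface but is anchored in the membrane, so the word secreted does not hold for it. Several of these genes are known in skin and hair follicles and in the mesenchyme of the mammary gland, and some are themselves induced by Wnt signaling as feedback inhibitors.

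Most Wnt antagonists were more abundant in the tumors than in the glands. Of the 8 listed genes, 7 were significantly higher in the tumors than in the glands, at a false discovery rate (FDR) below 0.05 and a change of more than 2-fold. Sfrp4 was the one gene not called in either direction. Among all 15213 genes, 10.5% were called higher and 10.1% were called lower by the same rule. The median log2 fold change was 1.66 over the 8 antagonists and 0.01 over all genes. For 5 of the 8, Sfrp1, Sfrp2, Dkk2, Dkk3 and Apcdd1, each of the 10 tumors was above each of the 3 glands, which held for 11.4% of all genes. Levels are normalized cpm as deposited, and changes are differences of log2(normalized cpm + 1) from limma, with p-values adjusted by Benjamini-Hochberg over all listed genes. The 10 tumors enter as separate samples, although some share a mouse. With a single value per mouse, 6 of the 7 calls held and Wif1 was at an adjusted p of 0.0738. In whole tissue, a change in the number of cells of one type and a change in RNA per cell cannot be told apart.

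**Figure D1:**
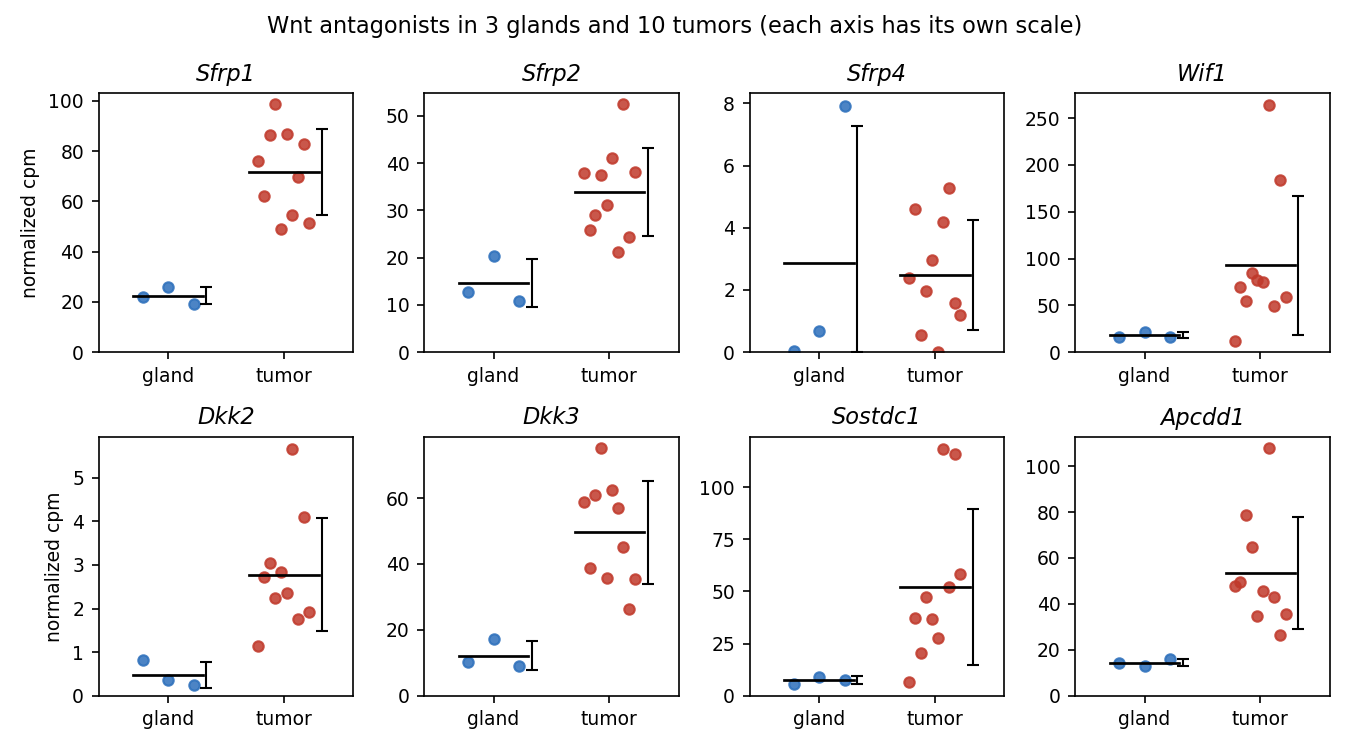
Level of each listed Wnt antagonist in normalized cpm in the 3 glands (blue) and the 10 tumors (red). Each point is a library, the horizontal line is the mean and the bar is the SD, cut at 0 for Sfrp4 in the glands. For Sfrp1, Sfrp2, Dkk2, Dkk3 and Apcdd1 the 2 groups of points do not overlap, whereas tumor 1 lies below all glands for Wif1 and among the glands for Sostdc1.

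Among the Frizzled-related genes, Sfrp1 (Entrez 20377; GRCm38.p6 chromosome 8, 23411383 to 23449632) rose in every tumor. It was at 22.1, 26.0 and 19.3 normalized cpm in glands 1, 2 and 3. In the tumors it reached between 49.0 and 98.9 normalized cpm, with a median of 72.9, so that the lowest tumor stood well above the highest gland. The log2 fold change was 1.61 (standard error, SE, 0.21, adjusted p = 5.2e-05, limma). Sfrp1 spread little among the tumors, with a ratio of 2.02 between the highest and the lowest. Its call held in all 25 alternative analyses.

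Sfrp2 (Entrez 20319; chromosome 3, 83765750 to 83774314), which is best known from fibroblasts and developing mesenchyme, showed the smallest rise of the called genes. The glands were at 12.7, 20.3 and 10.7 normalized cpm. The tumors lay between 21.2 and 52.6 normalized cpm, with a median of 34.4, and the lowest of them, tumor 7, was just above gland 2. On the log2 scale the difference was 1.17 (SE 0.25, adjusted p = 0.00267, limma). Without gland 3 the change was 0.98, just under the 2-fold limit, at an adjusted p of 0.0184.

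Sfrp4 (Entrez 20379; chromosome 13, 19623175 to 19632825), the remaining Frizzled-related gene, was low and was not called different. Its gland values were 0.0428, 0.671 and 7.92 normalized cpm, which stand for 1, 13 and 65 reads. Tumor values ran from 0 in tumor 6 to 5.30 normalized cpm in tumor 8, with a median of 2.19. The count of 0 in tumor 6 allows a level of up to 0.283 normalized cpm, that of 3 reads, by counting error only. Gland 3 was therefore above every tumor, while glands 1 and 2 were within or below the range of most tumors. The log2 fold change was 0.28, with a 95% confidence interval from -1.02 to 1.57 that covers a doubling in the tumors and one in the glands (adjusted p = 0.762, limma). Without gland 3 the change was 1.20 (adjusted p = 0.111), and without gland 1 it was -0.35 (adjusted p = 0.784).

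Wif1 (Entrez 24117; chromosome 10, 121034004 to 121100642), the WIF-domain inhibitor, varied widely among the tumors. The glands were close together at 16.6, 21.99 and 16.1 normalized cpm. Tumor 1 was at 12.1 normalized cpm, below all glands, whereas the other 9 tumors were above them, from 49.4 in tumor 8 to 264 in tumor 7. Tumor 9 followed at 184 normalized cpm, and the tumor median was 72.1. Tumors averaged 92.9 ± 74.4 normalized cpm (SD, n = 10). The fitted log2 fold change was 1.92 (SE 0.61, adjusted p = 0.0262, limma), and the call depended on single libraries. Without glands 1, 2 and 3 in turn, the log2 fold change stayed at 1.86, 2.06 and 1.84, while the adjusted p was 0.0954, 0.0578 and 0.0659. The adjusted p was 0.0597 without the mouse of tumors 8, 9 and 10, while without tumor 1 it was 0.00164.

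Of the Dickkopf genes, Dkk3 (Entrez 50781; chromosome 7, 112116019 to 112159482) encodes a divergent family member whose part in Wnt signaling is less settled than that of the others. It was at 10.3, 17.1 and 8.90 normalized cpm in the glands and between 26.2 and 75.2 in the tumors, with a median of 51.0. The groups were far apart, and the log2 fold change was 1.93 (SE 0.29, adjusted p = 1.3e-04, limma). As for Sfrp1, each of the 25 alternative analyses called Dkk3 higher.

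Dkk2 (Entrez 56811; chromosome 3, 132085266 to 132180304), an Lrp6 ligand that can inhibit or weakly activate the pathway depending on its partners, was near the lower end of detection. The glands held 19, 7 and 2 reads, that is 0.814, 0.361 and 0.244 normalized cpm. The tumors held between 13 and 54 reads, at 1.14 to 5.66 normalized cpm with a median of 2.54. All tumors were above all glands, with tumor 7 highest and tumor 1 lowest. The log2 fold change was 1.31 (SE 0.28, adjusted p = 0.00253, limma), a value that the added 1 holds down at such levels. With edgeR's quasi-likelihood test on the recovered reads it was 2.45 (adjusted p = 0.00242), and with 2 added in place of 1 it was 0.92, under the 2-fold limit.

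Sostdc1 (Entrez 66042; chromosome 12, 36314169 to 36318452), a cystine-knot protein that binds both Lrp co-receptors and bone morphogenetic proteins, had the largest fitted rise of the 8 genes. It was at 5.48, 9.19 and 7.44 normalized cpm in the glands. In tumor 1 it was at 6.54 normalized cpm, inside the gland range, and the other 9 tumors lay between 20.3 in tumor 3 and 119 in tumor 7, with tumor 9 almost as high at 116. The log2 fold change was 2.32 (SE 0.62, adjusted p = 0.0102, limma), with a 95% interval from 1.00 to 3.65. Without gland 1 it was not called, at a log2 fold change of 2.15 (adjusted p = 0.0576).

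Apcdd1 (Entrez 494504; chromosome 18, 62922327 to 62953815), the membrane-anchored inhibitor, was at 14.3, 12.8 and 16.1 normalized cpm in the 3 glands. The tumors were between 26.4 in tumor 9 and 108 in tumor 7, with a median of 46.7, and none overlapped the glands. Its log2 fold change of 1.71 (SE 0.32, adjusted p = 9.57e-04, limma) passed the limits in all 25 alternative analyses. Sfrp1, Dkk3 and Apcdd1 were thus the antagonists called in every analysis run, while Dkk2, which the study's filter leaves out, was called in 22 of 24, all but those with 2 added and with a replicate block.

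**Figure D2:**
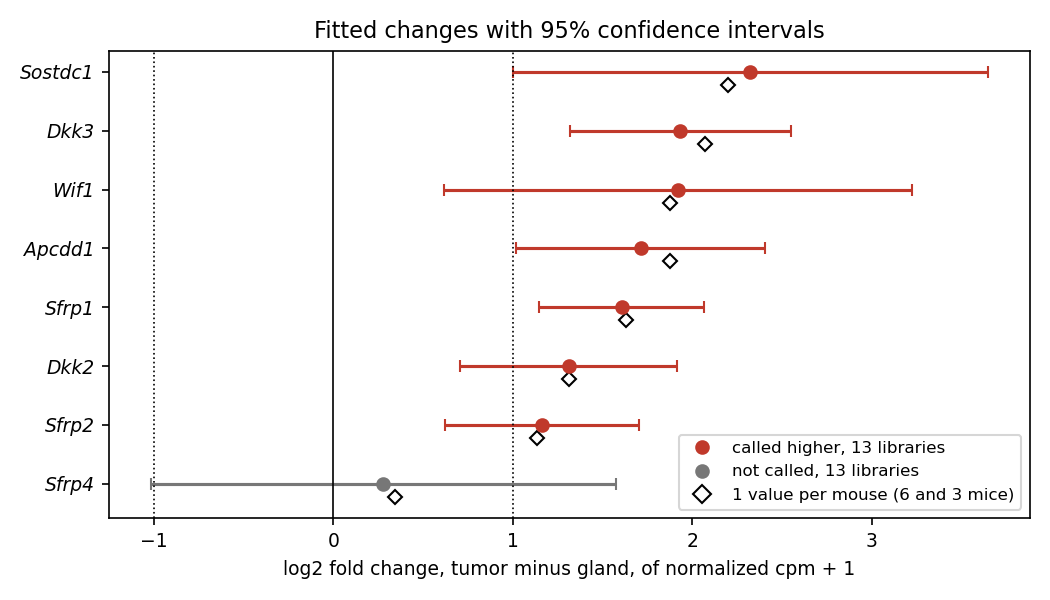
Log2 fold change of each listed Wnt antagonist (tumor minus gland, on normalized cpm + 1) with its 95% confidence interval from limma (circles, red where called higher, gray where not). Open diamonds give the change with 1 value per mouse, and dotted lines mark a change of 2-fold. The circles of 7 genes lie between 1.17 and 2.32, and the interval of Sfrp4 crosses 0.

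Levels of different genes were compared per kilobase of transcript. In the glands, Wif1 (7.94 normalized cpm per kb), Apcdd1 (7.63) and Sfrp2 (7.28) led, followed by Sfrp1 (5.14), Sostdc1 (4.14) and Dkk3 (3.60), and each of these neighbors overlapped the next within its SD. Sfrp4 (0.711 normalized cpm per kb) and Dkk2 (0.128) were far lower, and Dkk3 and Sfrp4 did not overlap within their SD. In the tumors, Wif1 (40.5 normalized cpm per kb), Sostdc1 (29.2) and Apcdd1 (28.3) had the highest means, followed by Sfrp2 (16.9), Sfrp1 (16.4) and Dkk3 (14.7), but here too each of these neighbors overlapped the next within its SD. Sostdc1 was in the fifth place in the glands and in the second in the tumors, an order that the overlap leaves unsettled. Dkk2 (0.751) and Sfrp4 (0.612) again stood apart at the bottom.

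RefSeq promoters, from 250 bases before to 50 bases after the annotated start, were at hand for 3 of the 8 genes, all of which rose in the tumors, and these are shown for that reason. The Sfrp2 promoter lies at chr3:83766071-83766370, that of Wif1 at chr10:121033754-121034053 and that of Dkk2 at chr3:132085042-132085341, all on the plus strand of GRCm38.p6. The start that each window is built on is that of a transcript and lies 571 bases inside the gene span given above for Sfrp2 (83766321) and 26 bases inside it for Dkk2 (132085292), whereas for Wif1 it is the first base of the span. Motif positions count from these starts. Capitals mark a TATAAA motif or its reverse complement TTTATA. Each sequence runs 5′ to 3′.
Sfrp2: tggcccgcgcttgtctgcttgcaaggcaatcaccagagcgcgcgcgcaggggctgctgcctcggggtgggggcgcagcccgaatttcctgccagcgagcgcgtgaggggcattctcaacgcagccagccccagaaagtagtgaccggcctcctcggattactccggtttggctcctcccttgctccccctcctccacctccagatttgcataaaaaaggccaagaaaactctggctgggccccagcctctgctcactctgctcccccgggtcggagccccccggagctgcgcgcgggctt
Wif1: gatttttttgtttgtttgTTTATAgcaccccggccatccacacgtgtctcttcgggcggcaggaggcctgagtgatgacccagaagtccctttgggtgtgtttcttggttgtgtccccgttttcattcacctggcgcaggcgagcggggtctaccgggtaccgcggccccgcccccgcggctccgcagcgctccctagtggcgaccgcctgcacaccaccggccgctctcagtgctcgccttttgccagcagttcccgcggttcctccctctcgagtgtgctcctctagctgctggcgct
Dkk2: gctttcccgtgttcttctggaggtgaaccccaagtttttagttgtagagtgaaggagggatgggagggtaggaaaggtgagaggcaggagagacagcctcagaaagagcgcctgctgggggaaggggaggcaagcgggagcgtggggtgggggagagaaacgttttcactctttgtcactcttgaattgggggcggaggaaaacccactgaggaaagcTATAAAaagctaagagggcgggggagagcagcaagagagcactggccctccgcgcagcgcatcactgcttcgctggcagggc
The promoters of Sfrp2 and Wif1 were rich in CpG, with 22 and 25 CpG dinucleotides and 66% and 63% G and C, where the median of 32544 promoters was 7 CpG and 53%. At least as many CpG were found in 23.25% of all promoters for Sfrp2 and in 18.55% for Wif1. Dkk2, the weakly expressed gene, had 11 CpG and a TATAAA at position -32 from the start, whereas the match in Wif1 was on the other strand at position -232. TATAAA on either strand occurred in 13.6% of all promoters. The TCF/LEF motif CTTTGAT, searched on both strands, was in 0 of these 3 windows and in 3.73% of all promoters.

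The antagonists did not rank the tumors in one shared order. Tumor 7 held the highest level of Wif1, Dkk2, Sostdc1 and Apcdd1 but the lowest of Sfrp2. Tumor 9 ranked second for Wif1, Dkk2 and Sostdc1 and last for Dkk3 and Apcdd1. Tumor 1, in turn, was last for Wif1, Dkk2 and Sostdc1 and in the middle for the others. The SD of the log2 level over the 10 tumors was 1.17 for Sostdc1 and 1.15 for Wif1, against 0.35 for Sfrp1 and 0.39 for Sfrp2. Tumors of the same mouse could be far apart, as for Wif1 in tumors 8, 9 and 10 of a single mouse, at 49.4, 184 and 58.8 normalized cpm. Tumors 8 and 10 were close here, and tumor 9 is the library with 27.4% of its reads from Rn45s. The ranks of tumor 9 above carry the same limit.

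**Figure D3:**
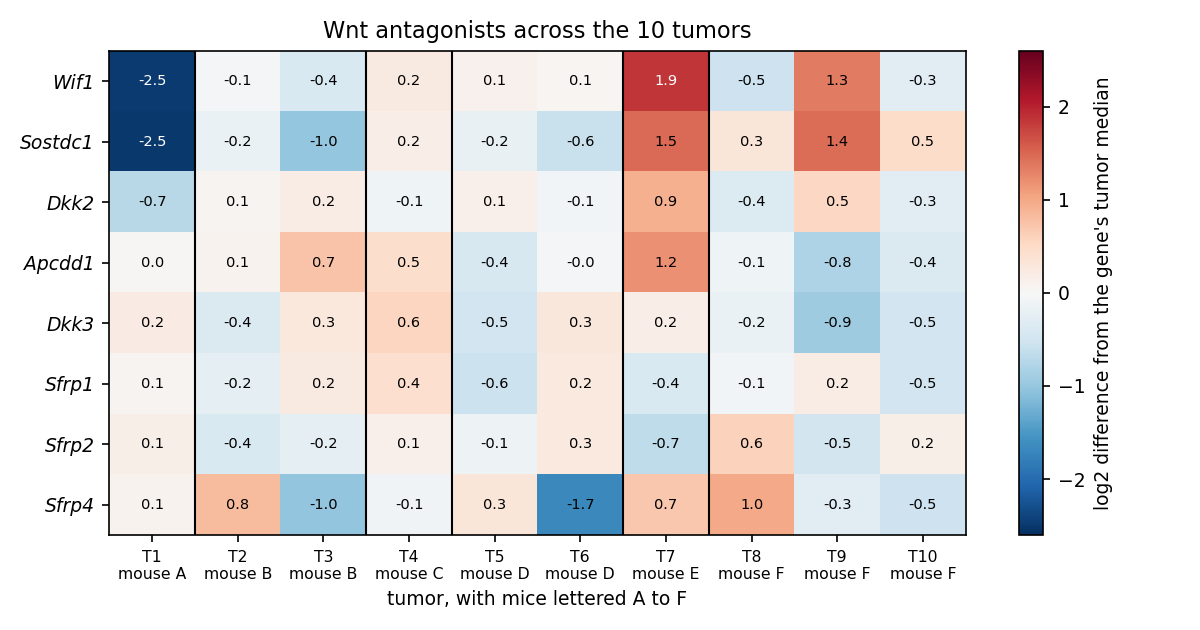
Log2 level (normalized cpm + 1) of each listed Wnt antagonist in each tumor, as the difference from that gene's median over the 10 tumors, with red above and blue below the median. Tumors are grouped by mouse (A to F, black lines), and Wif1 and Sostdc1 share their low value in T1 and their high values in T7 and T9.

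Over the 6 mice, with the tumors of a mouse averaged, 2 of the 28 pairs of antagonists passed an adjusted p of 0.05 for Pearson's r (exact permutation test over 720 orders, two-sided, Benjamini-Hochberg over the pairs). Wif1 and Sostdc1 rose and fell together, with r = 0.962 (exact p = 0.00278, adjusted p = 0.0389) and Spearman's rho = 0.943 (exact p = 0.0167, adjusted p = 0.233). The r of this pair was 0.751 over the 4 mice left without the 2 farthest from the median of Wif1. Sfrp2 and Dkk2 went in opposite directions, with r = -0.871 (exact p = 0.00139, the smallest that 6 mice allow, adjusted p = 0.0389) and rho = -1 (exact p = 0.00278, adjusted p = 0.0778), and r was -0.802 over 4 mice. Wif1 and Dkk2 gave r = 0.938 (exact p = 0.0667, adjusted p = 0.373), but this turned to -0.955 over the 4 mice left and so rested on the 2 farthest. The 2 rank correlations therefore missed the threshold where the r values passed it.

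Genes with a pattern most like that of an antagonist were ranked by Pearson's r over the 10 tumors among 11979 genes, as a description in which tumors share mice. For Wif1 they were Scnn1g (r = 0.940), Gem (0.937) and Scnn1b (0.933), where Scnn1g and Scnn1b encode subunits of the epithelial sodium channel. Sostdc1 was followed most closely by Ror2 (r = 0.957), a receptor for Wnt5a, and then by Fhod3 (0.919) and Ccdc27 (0.918). Ror2 itself ranged from 2.70 to 12.4 normalized cpm in the tumors and from 2.80 to 3.34 in the glands, and was significantly higher in the tumors (log2 fold change 1.01, adjusted p = 0.0190, limma). Apcdd1 was most like Npas2 (r = 0.964), Nectin4 (0.947) and Fdft1 (0.944). For Dkk3 they were Car12 (0.938), 5730409K12Rik (0.937) and H2-DMa (0.921). Sfrp2 had Irf3 (0.937), Pigl (0.903) and Alg2 (0.903), and Sfrp1 had lower values, with Ptprk (0.882), Rsf1 (0.856) and Lrrc58 (0.828).

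Of 60 other Wnt pathway genes listed in 6 lists, 23 were significantly higher in the tumors, with a median log2 fold change of 0.66 over the 60. These were 38.3% of the 60, against 10.5% of all genes, but the lists were chosen with earlier results of these data known. Some genes, such as Notum and Lgr5, are in 2 lists, so the counts by list overlap. Another 8 were significantly lower, and their share of 13.3% was near the 10.1% of all genes. Among 11 other antagonists, 4 rose, led by the Wnt deacylase gene Notum (log2 fold change 4.25) and the Dickkopf receptor gene Kremen2 (3.88), and Igfbp4 fell, with 172 ± 36.0 normalized cpm (SD, n = 3) for the glands and 84.0 ± 28.4 (SD, n = 10) for the tumors. Of 12 ligand genes, 7 were higher, with Wnt10a (log2 fold change 3.78) and Wnt7b (3.23) in front, and Wnt4 (-1.49) and Wnt2 (-1.07) were lower. Receptor genes split into 6 that rose, such as Fzd10 (2.27) and Fzd1 (2.22), and 2 that fell, Fzd4 (-3.13) and Fzd5 (-1.83), of 15. The genes of the co-receptors that Dkk2 and Sostdc1 bind were not called, at log2 fold changes of 0.02 for Lrp5 (adjusted p = 0.979, limma) and 0.27 for Lrp6 (adjusted p = 0.521, limma). Of 12 feedback targets, 7 rose, with Lgr5 (5.94) and Nkd2 (4.84) in front, and Lef1 (-2.38) fell. Of 12 genes of the beta-catenin complex and TCF factors, Lef1 and Tcf7l1 (-1.76) fell and the other 10 were not called. Lef1, which lymphocytes also express, was uneven in the glands, at 43.3 normalized cpm in gland 1, 0.774 in gland 2 and 15.6 in gland 3, and 5 of 10 tumors were below all glands.

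**Figure D4:**
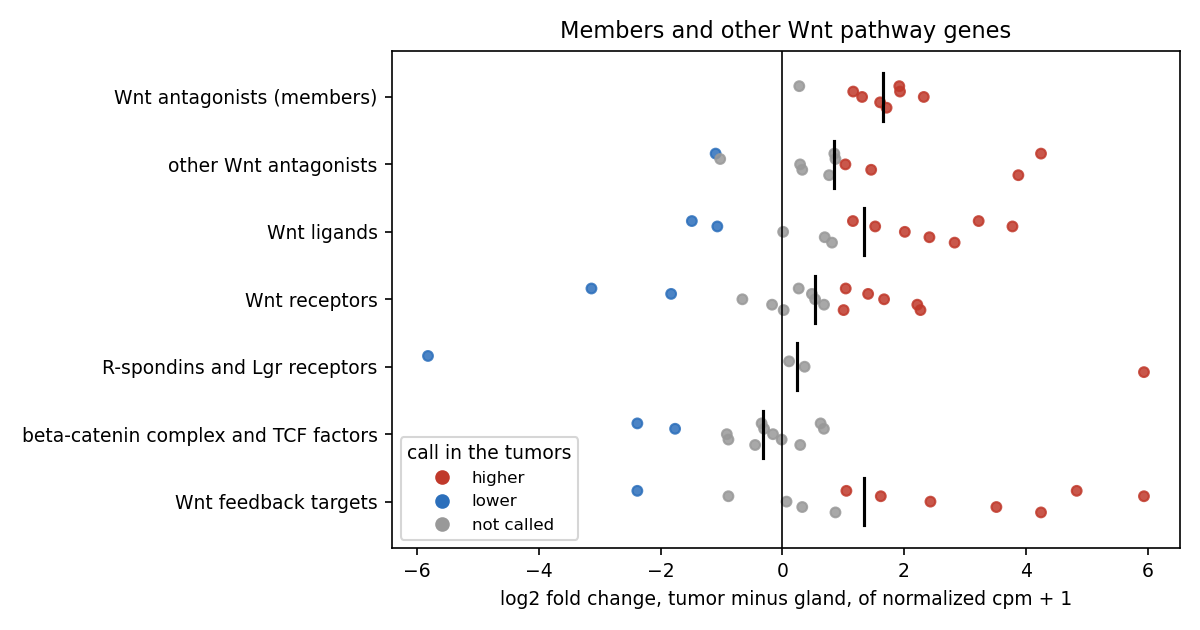
Log2 fold change (tumor minus gland, on normalized cpm + 1) of each listed gene of the Wnt antagonists and of 6 lists of other Wnt pathway genes. Red points were called higher and blue points lower in the tumors, gray points were not called, and black bars are list medians. The antagonists at the top have 7 red points, 1 gray point and no blue point, with a median of 1.66.

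Markers of other cell types also differed between the groups, and their part in the antagonist values was not tested. Fibroblast genes had a lower summed level in every tumor, between 423 and 1256 normalized cpm against 3950 to 4482 in the glands, with 1 of 10 genes higher and 4 lower. All 10 adipocyte genes were lower, with sums of 157 to 641 normalized cpm in the tumors and 6068 to 15640 in the glands. Endothelial genes were lower for 7 of 8. Milk genes were lower for 8 of 8, with sums of 166100 to 305700 normalized cpm in the glands and 1411 to 76990 in the tumors, and the reproductive stage of the glands and the difference between tumor and gland cannot be told apart. Luminal epithelial genes overlapped, with tumor sums of 1804 to 3258 and gland sums of 1741 to 3622 normalized cpm, while 4 of 9 basal epithelial genes were higher and 5 lower. Of 8 macrophage genes Cd68 was called higher, and their sum was above all glands in each tumor, at 369 to 740 against 316 to 327 normalized cpm. Of 7 pericyte and smooth muscle genes 1 was lower, and of 6 Schwann cell genes 1 was higher and 2 were lower. Of 8 lymphocyte genes 6 were lower, but their sum was 404 normalized cpm in gland 1, 21.5 in gland 2 and 388 in gland 3, and tumor 1, at 93.3, was above gland 2. Gland 2 was thus the lowest gland for lymphocyte genes and for Lef1, and the part of lymphocytes in the Lef1 values was not tested. The 6 skeletal muscle genes were not called by limma, although their sums of 1999 normalized cpm in tumor 4 and 327 in tumor 10 were above the 21.7 of the highest gland. By contrast, 8 of 9 listed squamous genes rose, at sums of 366 to 3055 normalized cpm in the tumors and 6.51 to 21.5 in the glands. Hair follicle genes rose for 9 of 9, with sums of 9.63 to 14.9 normalized cpm in the glands. Their sums in the tumors were lowest in tumor 1, at 124 normalized cpm, and highest in tumors 7 and 9, at 3557 and 1657. These are also the tumors at either end for Wif1, Dkk2 and Sostdc1. Tumor 4 did not follow, with a low sum of 187.5 normalized cpm but a Wif1 level of 84.8, above the tumor median of 72.1. With each library scaled to the fibroblast genes, the median change of all genes was 1.27. Sfrp1, Sfrp2, Wif1, Dkk3, Sostdc1 and Apcdd1 were between 1.21 and 2.28 above that median. Such scaling multiplies all genes of a library by the same factor. Distances from the median therefore stay nearly fixed apart from the added 1, and they cannot show whether fibroblast content matters. Dkk2 was 0.55 above it and Sfrp4 was at -0.42. With scaling to epithelial genes the median of all genes was -0.44. Sfrp2 was 1.15 and Wif1 1.90 above that median, against 1.15 and 1.91 without this scaling, a match that the common factor fixes in advance. Neither gene was called with this scaling, at 0.70 for Sfrp2 and 1.45 for Wif1 (adjusted p = 0.0825, limma).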

How the data were processed

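The authors used Rsubread to map paired-end reads to mm10, featureCounts for gene counts and edgeR for normalization. The strand setting is not given in the sources used here. The deposited signal values are read counts divided by a normalized library size (normalized cpm). In each library 100% of values lay within 0.01 of a whole multiple of its smallest value above 0, and reads were recovered on this basis. Because the values are normalized, a count test on these reads was an alternative only.

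Tumors and glands were compared with limma 3.58.1 (R 4.3.3, variance trend) on log2(normalized cpm + 1) over all 15213 genes. The study's filter (5 normalized cpm or less in most libraries) passes 6 of the 8 antagonists, not Sfrp4 and Dkk2, and leaves out genes high in the 3 glands alone, so it was an alternative only. Others were pseudocounts of 0.5 and 2, TMM, scaling to epithelial or fibroblast genes, edgeR 4.0.16 and DESeq2 1.42.0 on recovered reads, a mouse block, 1 value per mouse, a replicate block and leaving out libraries. The tools were tested on simulated data, where DESeq2 made more false calls than its nominal rate. Coordinates and promoters are from RefSeq (GRCm38.p6), and lengths are those of the longest well-supported transcript of GENCODE M21. No listed antagonist overlaps another RefSeq gene. The antagonists and lists were chosen with earlier results of these data known. By rule, all antagonists were named, with the 2 largest rises and falls called in each pathway list and the 3 genes most like each antagonist with a tumor mean of at least 5 normalized cpm. The labels name 2 facilities for library construction and sequencing, the UNMC core and Novogene, for every sample alike, so no library could be assigned to either, and facility and group cannot be told apart.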

Additional observations from a re-analysis of the deposited data

How the results depend on the processing

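Of the 7 antagonists called higher, Sfrp1, Dkk3 and Apcdd1 were called in all 25 alternatives, Sostdc1 and Sfrp2 in 23 and 22 of 25, Dkk2 in 22 of 24 and Wif1 in 18 of 25. No called gene changed direction. Sfrp4 was called in none of 24 alternatives. With scaling to epithelial genes it was at -0.0292, which is 0.41 above the median of all genes under that scaling (0.27 above it without). This distance moved because the added 1 dampens the shift of low values. The change of Sfrp4 was -0.14 with edgeR, -0.20 with DESeq2 and between -0.35 and 1.20 with 1 library left out. Leaving out a gland ended the call of Wif1 in each case, of Sostdc1 without gland 1 and of Sfrp2 without gland 3, with log2 fold changes of 1.84 to 2.06, 2.15 and 0.98. Over all genes, 1603 were called higher and 1538 lower. Scaling to epithelial genes gave 990 higher and 3013 lower, scaling to fibroblast genes 8913 and 405, and the study's filter left 825 lower. The tumor and gland numbers mark different mice, and same-numbered libraries did not deviate together (r = -0.41, 0.04 and -0.59). A replicate block on these numbers, which leaves tumors 4 to 10 without weight, gave 547 higher and 564 lower genes and 3 antagonists called higher. Depth limits Dkk2 and Sfrp4, with 2 reads and 1 read in their lowest gland. The floor of 3 reads covers counting error only, whereas the confidence intervals from limma rest on the spread between libraries.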

Other observations

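The R-spondins are secreted agonists that bind Lgr receptors and strengthen Wnt signals at the cell surface. Glands held 238 ± 96.5 normalized cpm of Rspo1 (SD, n = 3) and tumors 3.56 ± 2.24 (SD, n = 10), with each tumor below each gland and a change of -5.82 on the log2 scale (adjusted p = 9.56e-07, limma). Its receptor genes went separate ways, since Lgr5 rose while Lgr4 (log2 fold change 0.37, adjusted p = 0.272, limma) and Lgr6 (0.11, adjusted p = 0.853, limma) were not called. Rspo2, Rspo3 and Rspo4 were not analysed here. Fzd4, a receptor gene abundant in endothelial cells and adipocytes, averaged 23.8 ± 2.33 in the glands (normalized cpm, SD, n = 3) and 1.94 ± 0.991 in the tumors (n = 10).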
